A study of Mus musculus with 13 samples.

Results

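The ATP-binding cassette (ABC) transporter family was taken as every gene of the count table whose symbol begins with Abca, Abcb, Abcc, Abcd, Abce, Abcf or Abcg followed by a digit. That rule found 50 of the 24421 genes listed: 16 of subfamily A, 10 of B, 10 of C, 4 of D, 1 of E, 3 of F and 6 of G. RNA had been sequenced from 13 tissues of female MMTV-HER2/Neu mice, 11 spontaneous mammary tumors and 2 cancer-free mammary glands. All animals, those that gave the glands included, carried rat HER2/Neu cDNA driven in breast epithelium by the promoter of mouse mammary tumor virus, on the FVB/N background. The glands and the 3 primary untreated tumors came from mice that had been given no drug. The 3 primary stavudine tumors arose in mice drinking water with stavudine at 1 mg/mL, a nucleoside inhibitor of reverse transcriptase. The 3 recurrent 17-DMAG tumors had regrown after 17-DMAG, an inhibitor of the chaperone HSP90 injected at 20 mg/kg, had first cleared the tumor. The 2 recurrent 17-DMAG plus stavudine tumors had done so in mice that also drank stavudine. By the paper's methods, 17-DMAG injections went on during regrowth, until the end point size was reached. Regrowth and ongoing drug therefore cannot be told apart in the recurrent tumors. Stavudine was begun at 2 months of age or once a tumor appeared. The primary stavudine tumors developed in mice already on the drug, so the earlier start held for them. For the recurrent 17-DMAG plus stavudine tumors the start was not given, so comparisons of these groups may mix schedules. The labels did not give the age at collection. They gave the genotype as wild type beside the transgenic strain. Each library was read as 1 tissue. The p-values below measure only the spread between these libraries.

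ABC transporters are membrane proteins built around a pair of nucleotide-binding domains that hydrolyse ATP to move a substrate across a membrane. Subfamilies A, B, C, D and G pump lipids, sterols, drugs and conjugates out of the cell or into organelles, while E and F lack membrane domains and act on the ribosome. In breast tissue the best known member is Abcg2, which is induced in the lactating gland and secretes vitamins and drugs into milk, and in tumors the drug efflux pumps of subfamilies B, C and G are studied as a route of resistance to chemotherapy.

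Levels are given as CPM, counts scaled by the library total after correction by the TMM factor, which equalises the bulk of genes between libraries. Library totals ran from 39921388 to 56887708 counts, so that 3 counts, taken as the floor of detection, stood for 0.0587 to 0.107 CPM. The TMM factor was 0.493 in gland 2 and at least 0.999 in the others; milk protein genes took 36.2% of the counts of gland 2 and 3.16% of those of gland 1. Adipocyte markers summed to 1024 and 821 CPM in the glands and to 15.9 to 129 CPM in the tumors, with 8 of 8 markers above every tumor in both glands and 4 of them at 0 in at least 1 tumor. Endothelial markers summed to 337 and 308 CPM in the glands and 72.7 to 305 CPM in the tumors. T cell markers stood at 90.5 CPM in gland 1 and at no more than 7.64 CPM elsewhere. Luminal epithelial markers were present in all libraries, at 1412 to 2966 CPM in sum, as the mammary labels imply. Among tumors, recurrent 17-DMAG tumor 1 had the highest sums of fibroblast (3331 CPM), macrophage (576 CPM) and endothelial markers, while recurrent 17-DMAG plus stavudine tumor 2 had the highest of skeletal muscle (1600 CPM) and of basal markers (344 CPM), and the lowest luminal sum. Skeletal muscle markers stood at 1674 CPM in gland 2, the highest sum of all 13 libraries, at 6.48 CPM in gland 1, at 1015 CPM in primary untreated tumor 1, 435 CPM in recurrent 17-DMAG tumor 3 and 149 CPM in primary stavudine tumor 2, and at no more than 14.2 CPM in the other 7 tumors. Erbb2, whose count may include transcripts of the transgene, lay between 3697 and 19073 CPM. In bulk tissue of this kind, fewer cells of a type and less RNA per cell cannot be told apart.

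Of the 50 members, 42 had enough counts to be tested, and 31 stood above 1 CPM in every tumor. The 8 left out were Abca13, Abca14, Abca15, Abca16, Abcb5, Abcc6, Abcg5 and Abcg8, none of which passed 18 counts in any library. Abcg5 and Abcg8, the partners of the sterol pump of liver and gut, were at or below 0.162 CPM everywhere. Abcb5 had a count above 0 in 1 library alone, at 0.0408 CPM.

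**Figure D1:**
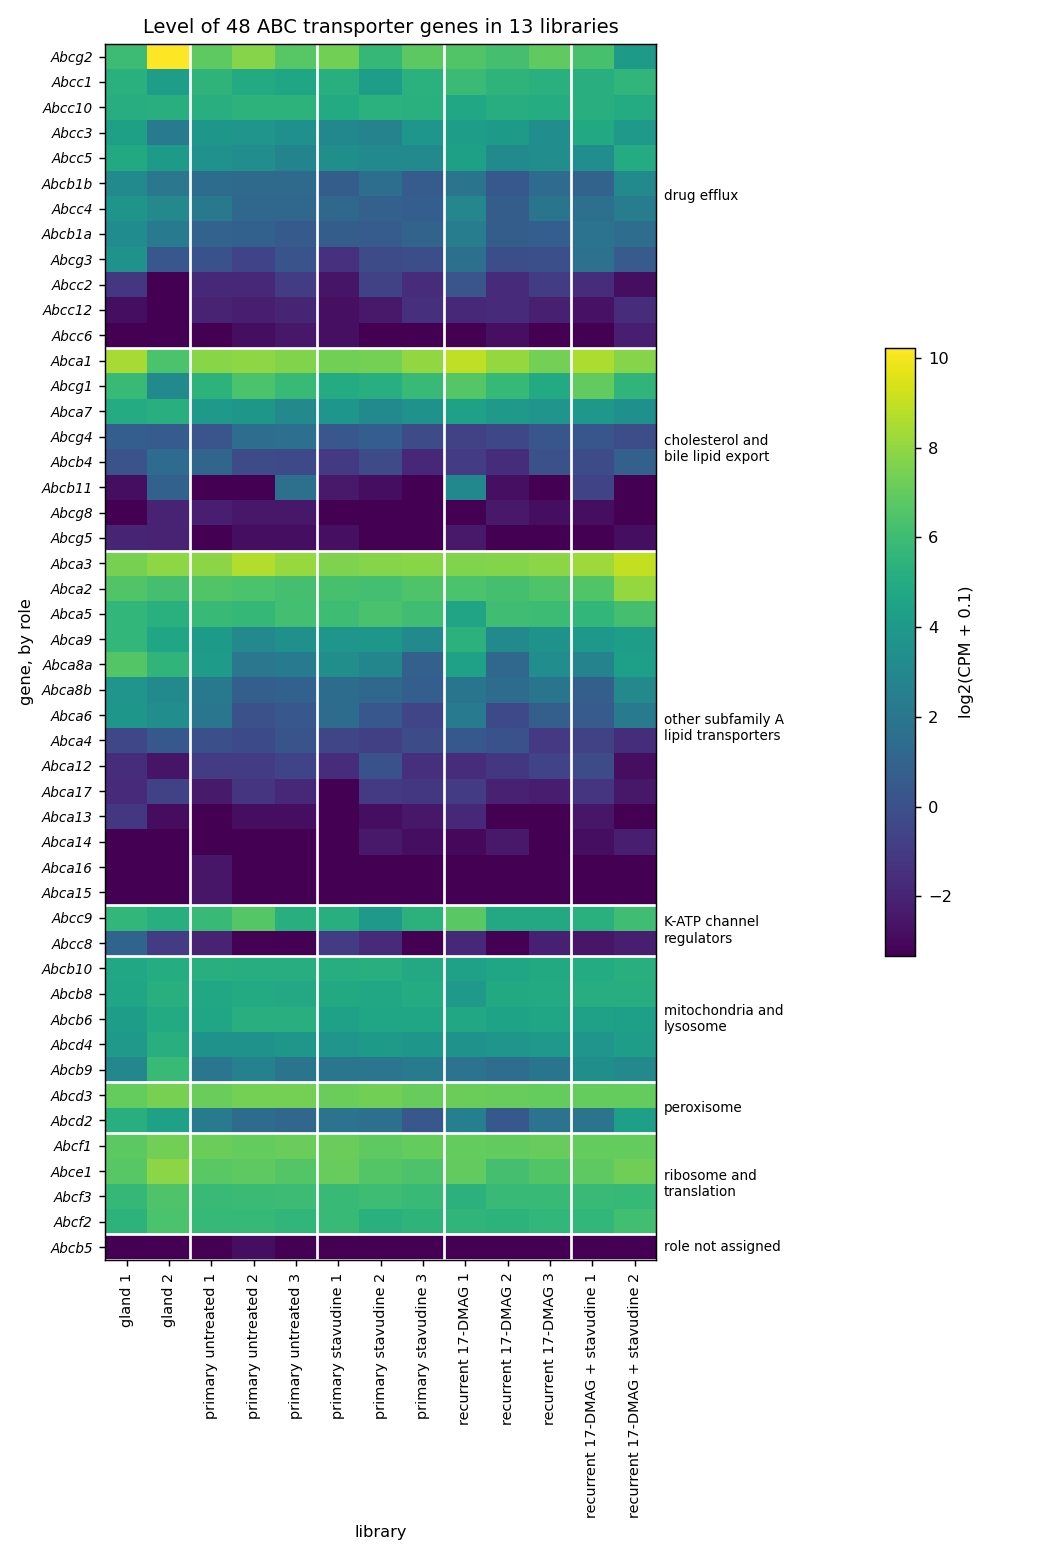
Levels of 48 ABC transporter genes (rows, grouped by role and sorted by tumor median within a role) in the 13 libraries (columns, grouped by label), as log2(CPM + 0.1). Abcg2 in gland 2, at 1193 CPM, is the brightest cell, and the members of the ribosome and translation group vary over the tumors by at most 2.05-fold.

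To compare genes with one another, CPM was divided by the summed length of a gene's exons in kilobases. On that scale the leading members in tumors were not the drug pumps. Abcf1, a translation factor, had a tumor median of 41.6 CPM per kb (37.0 to 45.9). Abcd3, the most widely expressed fatty acid transporter of the peroxisome, followed at 38.3 CPM per kb (35.5 to 46.7), Abca3, which loads phospholipids into lamellar bodies in lung, at 35.6 (29.5 to 77.9), and Abce1, which recycles ribosomes, at 28.4 (19.7 to 40.3). The ranges of all 4 overlapped, so their order was not resolved. The highest drug pump was Abcg2, eighth at a median of 18.1 CPM per kb with a range of 2.82 to 36.9. Abcc1, the broad exporter of glutathione conjugates, reached 5.76 CPM per kb (2.82 to 8.86). Both P-glycoprotein genes were far lower, Abcb1b at 0.582 (0.285 to 1.98) and Abcb1a at 0.355 (0.261 to 1.06), overlapping each other and not Abcc1.

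The members differed widely in how much they varied among the 11 tumors. Over the tumors, 10 of the 42 tested members kept within a 2-fold range, among them Abcf1 (1.24-fold), Abcd3 (1.32-fold) and Abcf3 (1.58-fold). Another 18 spanned more than 5-fold or were at 0 in at least 1 tumor, including Abcd2 (16.9-fold), Abcg2 (13.1-fold), Abca8a (12.4-fold) and Abcg3 (11.5-fold). The extremes gathered in few libraries: recurrent 17-DMAG tumor 1 was the highest tumor for 13 of the 42 and recurrent 17-DMAG plus stavudine tumor 2 for 12, whereas recurrent 17-DMAG tumors 2 and 3 were the highest for 0. Abcb11, the bile salt pump of liver, was the patchiest member. It stood at 7.94 CPM in recurrent 17-DMAG tumor 1, 3.05 CPM in primary untreated tumor 3, 1.75 CPM in gland 2 and 0.587 CPM in recurrent 17-DMAG plus stavudine tumor 1, and at no more than 0.0921 CPM in the other 9 libraries.

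Comparing the mean of the 4 tumor groups with the glands asked which transporters differ between the transformed and the cancer-free breast. Tumors had lower levels of 11 of the 42 members tested and higher levels of none at an adjusted p under 0.05, by edgeR's quasi-likelihood test with Benjamini-Hochberg adjustment over all 17135 genes tested. Across all genes, 8.81% were called lower and 1.6% higher. The median log2 change of the members was −0.38, beside −0.02 for all genes, with 27 members lower and 15 higher. At an unadjusted p under 0.05 there were 17 lower members and 1 higher, against 19% and 10.6% of all genes. The libraries of the 2 sides did not overlap for 8 members, 7 lower and 1 higher, where 7.37% and 4.14% of all genes did the same. By the roles assigned here, 4 of 11 drug pumps were called, Abcg2, Abcg3, Abcb1a and Abcc4. That role was given by list, Abcg3 and Abcc12 included, and drug transport was not measured for any member. Other subfamily A lipid transporters gave 3 of 10 and the mitochondrial and lysosomal members 2 of 6. The cholesterol and bile lipid exporters gave 1 of 6 and the peroxisomal members 1 of 3. None were called among the 2 regulators of ATP-sensitive potassium channels or the 4 ribosomal members.

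**Figure D2:**
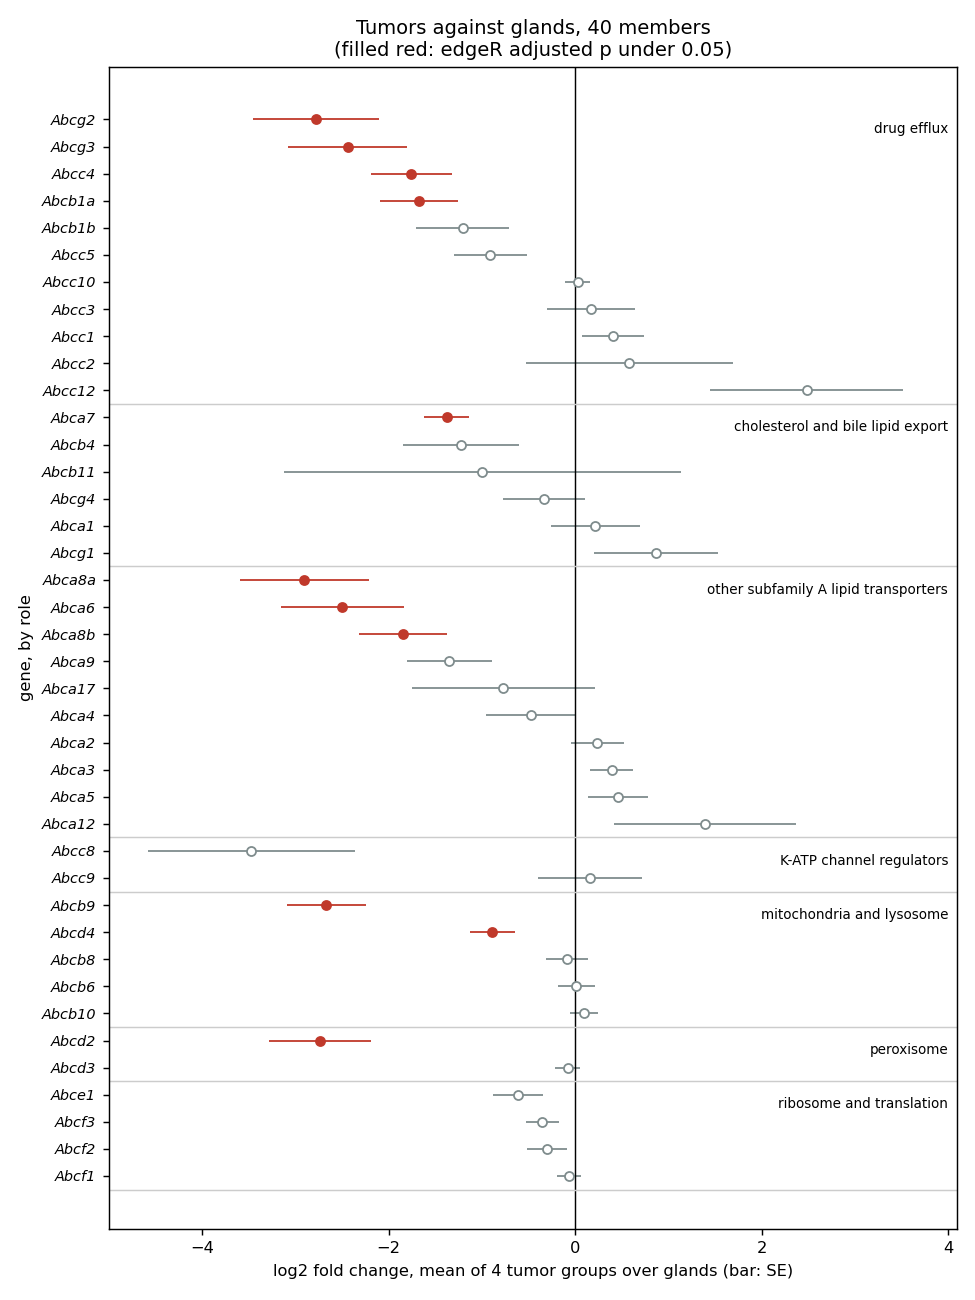
Log2 fold change of 40 of the tested members between the mean of the 4 tumor groups and the glands, with its standard error, grouped by role. The 11 filled points, from Abcd4 at −0.89 to Abca8a at −2.91, are those with an edgeR adjusted p under 0.05, and all lie left of 0.

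The drug efflux pumps came first. Abcg2 stood at 62.6 and 1193 CPM in the glands, at 115, 213 and 105 CPM in primary untreated, 160.1, 51.0 and 113 CPM in primary stavudine, 91.6, 73.6 and 119 CPM in recurrent 17-DMAG, and 78.3 and 16.3 CPM in recurrent 17-DMAG plus stavudine tumors. The milk-rich gland 2 was thus above every tumor, while gland 1 lay inside the range of the tumors. The fitted log2 change of −2.78 ± 0.68 (SE, adjusted p = 0.0293) turned to 0.63 (adjusted p = 0.755) when gland 2 was left out.

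Abcg3, a rodent gene related to Abcg2, showed the opposite gland. Its levels were 11.7 CPM in gland 1 and 1.18 CPM in gland 2, and 0.276 to 3.17 CPM in the tumors with a median of 0.902. Gland 2 lay among the tumors and only gland 1 stood apart. Gland 1 also had the highest sums of T cell (90.5 CPM) and neutrophil markers (18.5 CPM) of all libraries, and the part of those cells was not tested. The log2 change of −2.44 ± 0.64 (adjusted p = 0.0381) became 0.05 (adjusted p = 0.979) without gland 1.

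P-glycoprotein, which expels a broad range of drugs, is encoded in the mouse by Abcb1a and Abcb1b, neighbours on chromosome 5 (GRCm38, chr5:8660077-8748575 and chr5:8798147-8866315, both on the plus strand). Their coding sequences are 3828 bases each and 88.1% identical over the aligned bases, so counting could divide or drop reads between them. Of the 50-base words of Abcb1a, 17.0% recur in another gene, and 18.1% of those of Abcb1b. The longest stretch the 2 genes share without a mismatch covers coding bases 1357 to 1694 of Abcb1a, and is shown because a read pair lying wholly inside it cannot be assigned to either gene. Its first 300 bases, coding bases 1357 to 1656, are given here from the GENCODE transcript, with the codons of the LSGGQ signature of the first nucleotide-binding domain in capitals.
Abcb1a and Abcb1b: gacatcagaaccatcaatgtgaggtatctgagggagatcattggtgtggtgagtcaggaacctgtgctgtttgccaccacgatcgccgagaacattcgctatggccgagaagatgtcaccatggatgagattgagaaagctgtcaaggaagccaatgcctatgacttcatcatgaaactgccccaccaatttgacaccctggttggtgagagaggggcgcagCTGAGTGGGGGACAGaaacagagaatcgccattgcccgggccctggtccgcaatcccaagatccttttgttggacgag

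Abcb1a was at 9.47 and 4.46 CPM in the glands. It was at 1.79, 1.77 and 1.30 CPM in primary untreated, 1.52, 1.41 and 1.92 CPM in primary stavudine, 5.28, 1.47 and 1.57 CPM in recurrent 17-DMAG, and 3.46 and 2.77 CPM in recurrent 17-DMAG plus stavudine tumors. All tumors but recurrent 17-DMAG tumor 1, which also had the highest endothelial sum of the tumors, fell below both glands. Next came recurrent 17-DMAG plus stavudine tumors 1 and 2, with endothelial sums of 106 and 169 CPM. Primary untreated tumor 1, with Abcb1a at 1.79 CPM, had an endothelial sum of 153 CPM. The part of endothelium in these levels was not tested. The log2 change was −1.68 ± 0.42 (adjusted p = 0.0308).

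Abcb1b moved less. The glands held 8.95 and 4.00 CPM and the tumors 1.23 to 8.54 CPM with a median of 2.51, recurrent 17-DMAG plus stavudine tumor 2 being the highest of them. Its log2 change of −1.21 ± 0.50 did not pass the adjusted test (adjusted p = 0.14, unadjusted p = 0.0356).

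Abcc4, an exporter of cyclic nucleotides, prostanoids and nucleoside monophosphates, was at 12.9 and 8.14 CPM in the glands and at 1.52 to 7.53 CPM in the tumors with a median of 2.30. Every tumor lay below both glands, recurrent 17-DMAG tumor 1 being the nearest. The log2 change was −1.76 ± 0.44 (adjusted p = 0.0307). Abcc1 differed by 0.41 ± 0.34 (adjusted p = 0.436), its tumors spanning 19.1 to 60.2 CPM around glands of 38.9 and 19.1 CPM. The remaining pumps of the group, Abcc2, Abcc3, Abcc5, Abcc10 and Abcc12, did not pass either. Abcc12 was the member whose tumors all exceeded both glands, but at 0.0460 to 0.253 CPM against 0.0404 and 0 CPM, which is around the floor.

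**Figure D3:**
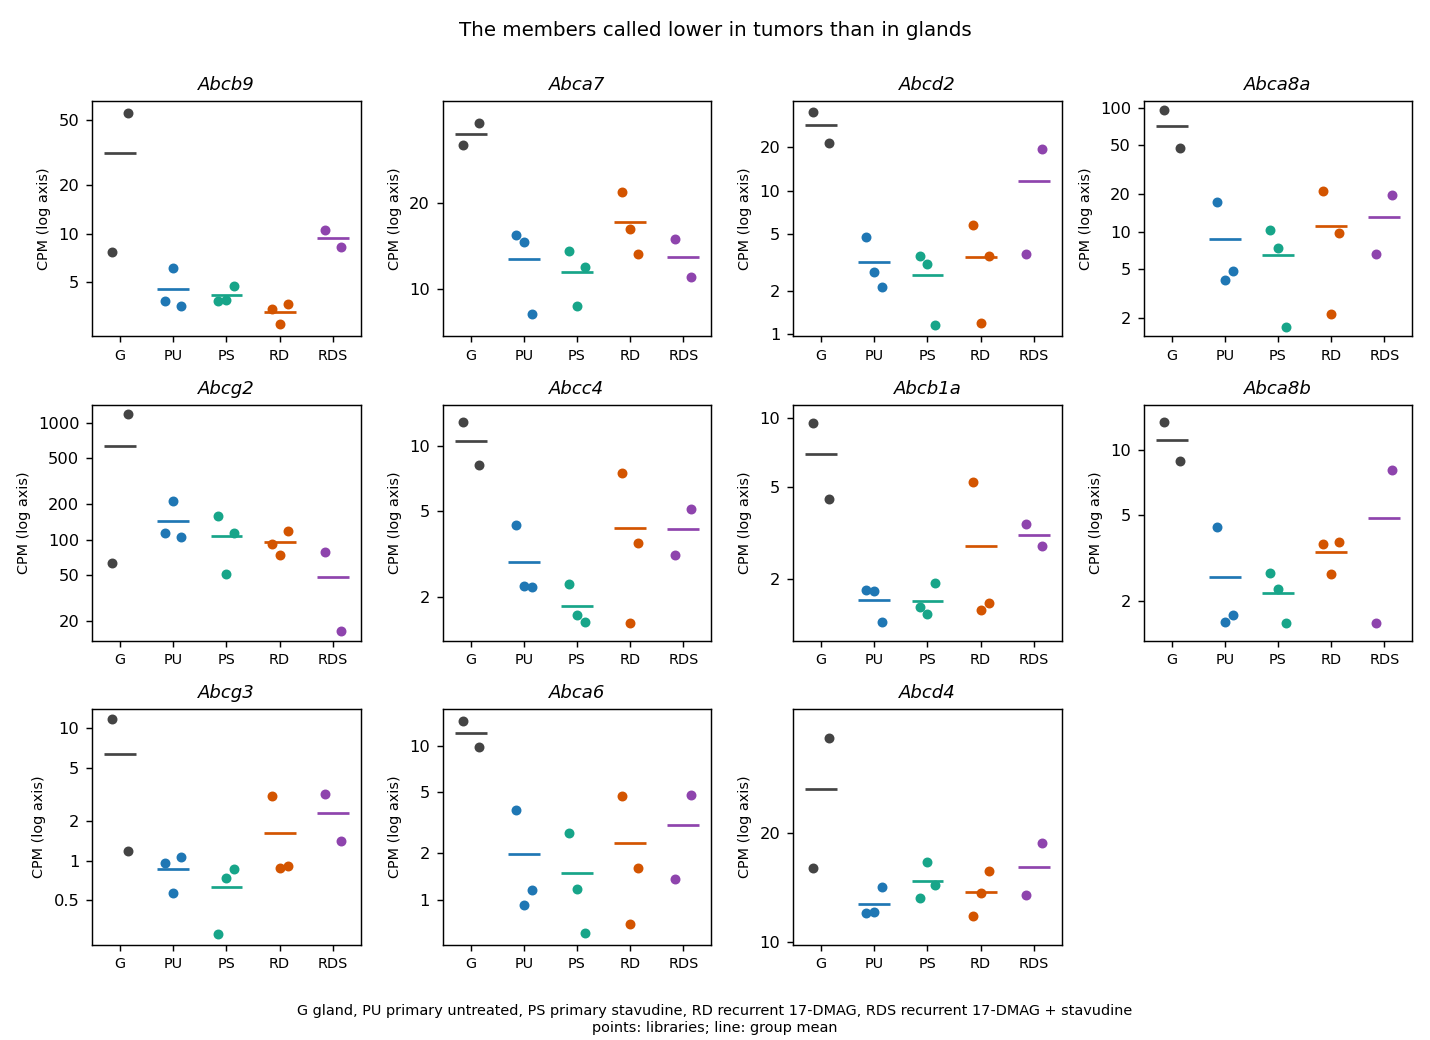
CPM on a log axis of the 11 members called lower in tumors, in each library by group, with group means as lines. Abcg2, Abcb9 and Abcd4 are set by gland 2 and Abcg3 by gland 1, whereas Abca7, Abcd2, Abca8a, Abcc4, Abca8b and Abca6 have every tumor below both glands.

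The cholesterol efflux pumps gave 1 call. Abca7, a phospholipid exporter also known for its role in phagocytosis, was at 31.8 and 37.8 CPM in the glands, 15.4, 14.5 and 8.20 CPM in primary untreated, 13.6, 8.75 and 11.96 CPM in primary stavudine, 21.8, 16.2 and 13.3 CPM in recurrent 17-DMAG, and 14.9 and 10.97 CPM in recurrent 17-DMAG plus stavudine tumors. No tumor reached either gland and the glands themselves lay close together. The log2 change was −1.38 ± 0.24 (adjusted p = 0.00777), and Abca7 was called in 18 of 21 alternative analyses. Abca1, which loads cholesterol onto apolipoprotein A-I, was at 347 and 84.4 CPM in the glands and 164 to 491 CPM in the tumors, a log2 change of 0.22 ± 0.47 (adjusted p = 0.784). Abcg1, which passes cholesterol to high-density lipoprotein, was at 58.0 and 8.39 CPM in the glands and 30.8 to 125 CPM in the tumors, a change of 0.87 ± 0.66 (adjusted p = 0.397). For both genes the glands differed from each other more than gland 1 did from most tumors.

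Lower levels in tumors were seen for a run of neighbouring subfamily A genes on chromosome 11. Abca8b, Abca8a, Abca9, Abca6 and Abca5 lie in this order, all on the minus strand, within 406 kb (GRCm38, chr11:109932190-110337716). They code for lipid transporters, less well characterised than Abca1. Abca8a was at 95.6 and 47.0 CPM in the glands and at 1.71 to 21.2 CPM in the tumors with a median of 7.31, a log2 change of −2.91 ± 0.69 (adjusted p = 0.0266). Abca8b went from 13.4 and 8.81 CPM to between 1.58 and 8.05 CPM (median 2.68, change −1.84 ± 0.47, adjusted p = 0.0340). Abca6 went from 14.4 and 9.85 CPM to between 0.612 and 4.77 CPM (median 1.37, change −2.50 ± 0.66, adjusted p = 0.0384). For these 3 genes every tumor was below both glands. Abca9 was at 50.7 and 26.0 CPM in the glands and 8.34 to 42.03 CPM in the tumors, and its change of −1.35 ± 0.46 did not pass (adjusted p = 0.0827), recurrent 17-DMAG tumor 1 lying between the glands. Abca5, at the end of the run, differed: the glands held 49.5 and 38.9 CPM and the tumors 24.1 to 79.1 CPM with a median of 64.8, and 10 tumors exceeded both glands. The 4 lower neighbours were highest among tumors in recurrent 17-DMAG tumor 1 or recurrent 17-DMAG plus stavudine tumor 2, the tumors with the 2 highest fibroblast sums. Fibroblast markers summed to 1538 and 1242 CPM in the glands, below the 3331 CPM of recurrent 17-DMAG tumor 1. Adipocyte markers summed to 1024 and 821 CPM in the glands and to at most 129 CPM in the tumors. The part of either cell type in the difference was not tested.

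**Figure D4:**
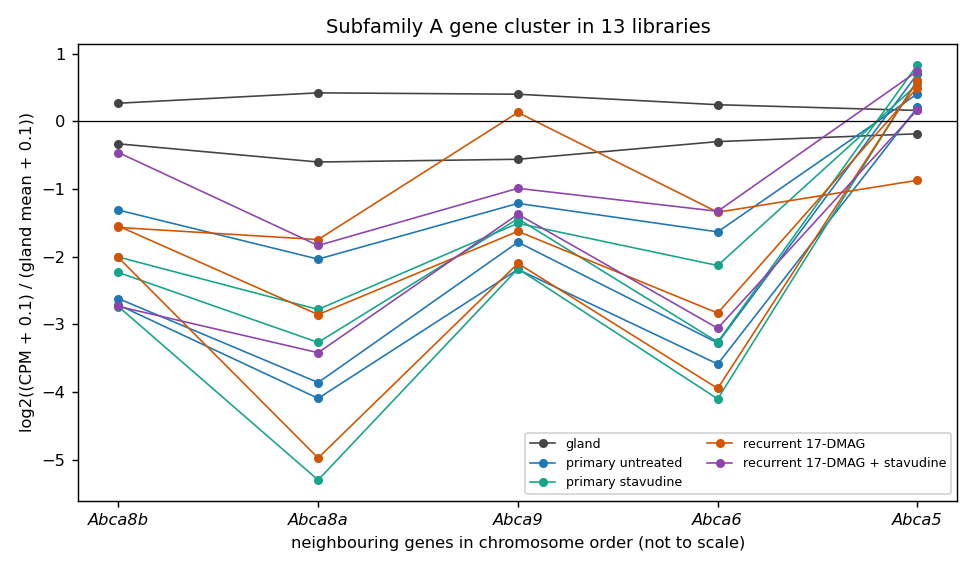
Level of 5 neighbouring subfamily A genes in each library relative to the mean of the glands, as log2((CPM + 0.1)/(gland mean + 0.1)), in chromosome order. The tumor lines run below 0 from Abca8b to Abca6, with recurrent 17-DMAG tumor 1 as the exception at Abca9, and 10 of 11 rise above 0 at Abca5.

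Of these genes, 4 of the 5, all but Abca6, had an entry among the RefSeq promoters (GRCm38.p6). The bases before each start site are shown because their content of CG pairs differs between Abca5 and the others. The genes were picked after their levels were seen, and a link between CG pairs and level was not tested. CG pairs are in capitals, and the bases that lie inside the GENCODE gene are left out.
Abca8b, chr11:109995846-109996095, minus strand: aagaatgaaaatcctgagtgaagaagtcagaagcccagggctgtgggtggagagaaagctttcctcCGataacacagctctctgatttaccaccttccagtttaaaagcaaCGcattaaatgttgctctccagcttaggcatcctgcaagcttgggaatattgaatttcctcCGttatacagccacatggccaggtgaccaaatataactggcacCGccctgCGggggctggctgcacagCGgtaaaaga
Abca8a, chr11:110095979-110096187, minus strand: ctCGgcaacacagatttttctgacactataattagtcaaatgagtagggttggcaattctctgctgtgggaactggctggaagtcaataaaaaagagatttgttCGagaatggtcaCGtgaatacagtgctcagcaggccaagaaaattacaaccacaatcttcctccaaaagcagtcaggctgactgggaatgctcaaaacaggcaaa
Abca9, chr11:110168197-110168403, minus strand: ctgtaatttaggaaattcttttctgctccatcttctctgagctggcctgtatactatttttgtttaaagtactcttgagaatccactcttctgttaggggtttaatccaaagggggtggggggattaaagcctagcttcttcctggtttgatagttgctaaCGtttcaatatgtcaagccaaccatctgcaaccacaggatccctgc
Abca5, chr11:110337717-110337966, minus strand: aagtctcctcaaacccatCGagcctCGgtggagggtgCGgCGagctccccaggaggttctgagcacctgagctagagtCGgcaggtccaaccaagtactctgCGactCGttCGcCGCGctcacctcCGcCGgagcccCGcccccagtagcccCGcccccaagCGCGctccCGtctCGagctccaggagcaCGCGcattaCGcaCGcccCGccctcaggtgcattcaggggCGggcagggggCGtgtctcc
The Abca5 window of 250 bases held 25 CG pairs. Those of Abca8b (250 bases), Abca8a (209 bases) and Abca9 (207 bases) held 6, 3 and 1. The ratio of observed to expected CG pairs was 0.850 in Abca5 and 0.403, 0.311 and 0.107 in the others. Over 45 promoters of 38 members the median of that ratio, in the 250 bases before the start, was 0.649, and over 32841 promoters of all genes it was 0.374. Motifs were searched on both strands of the same 250 bases. The GC box, GGGCGG, was in 20 of the 45 member promoters, those of Abca5 and Abca8b among them, and in 32.7% of all promoters. The canonical heat shock element was in none of the 45 and in 0.466% of all promoters. These matches are letters in a window and were not tested as sites.

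Among transporters of organelles, Abcb9 had the lowest adjusted p of the family. It carries peptides into the lysosome. The glands stood at 7.72 and 54.8 CPM, the primary untreated tumors at 3.86, 6.15 and 3.57 CPM, the primary stavudine tumors at 3.87, 3.87 and 4.77 CPM, the recurrent 17-DMAG tumors at 3.45, 2.79 and 3.67 CPM and the recurrent 17-DMAG plus stavudine tumors at 10.5 and 8.26 CPM. Gland 2 was far above all tumors, gland 1 was below both recurrent 17-DMAG plus stavudine tumors, and the other 9 tumors were below gland 1. The log2 change of −2.67 ± 0.42 (adjusted p = 0.00495) shrank to −0.56 (adjusted p = 0.459) without gland 2. Abcd4, which takes part in the release of vitamin B12 from the lysosome, had 16.0 and 36.8 CPM in the glands and 11.8 to 18.8 CPM in the tumors (change −0.89 ± 0.24, adjusted p = 0.0447, and −0.08 without gland 2). The mitochondrial members Abcb6, Abcb8 and Abcb10 were not called. Gland 2, which set the calls of Abcg2, Abcb9 and Abcd4, had the highest milk and skeletal muscle sums of all libraries, and the part of those cells was not tested.

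In the peroxisome, Abcd2, a carrier of very long chain fatty acids that is abundant in fat tissue, was at 35.4 and 21.6 CPM in the glands. It was at 4.74, 2.71 and 2.13 CPM in primary untreated, 3.50, 3.11 and 1.16 CPM in primary stavudine, 5.74, 1.21 and 3.48 CPM in recurrent 17-DMAG, and 3.62 and 19.7 CPM in recurrent 17-DMAG plus stavudine tumors. Every tumor was below both glands, although recurrent 17-DMAG plus stavudine tumor 2 came close to gland 2. That tumor had the highest adipocyte sum among tumors, at 129 CPM. Primary untreated tumor 1 and primary stavudine tumor 1 had sums of 122 and 120 CPM, with Abcd2 at 4.74 and 3.50 CPM. The log2 change was −2.74 ± 0.55 (adjusted p = 0.0134), Abcd2 was called in 19 of 21 alternative analyses, and the part of adipocytes was not tested. Abcd3 was not called. The ribosomal members Abce1, Abcf1, Abcf2 and Abcf3 all had negative changes and no call, with gland 2 above every tumor for each of them. The channel regulators Abcc8, the sulfonylurea receptor of beta cells, and Abcc9, that of muscle and vessels, had no call either by edgeR over all libraries. Abcc8 was at 1.94 and 0.428 CPM in the glands and at most 0.437 CPM in tumors, and it was called lower by limma voom, and by edgeR when primary untreated tumor 1 was left out.

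With 1 library left out at a time, the number of members called ran from 1 to 13. It was 1 without gland 2 (Abcg3), 9 without gland 1 (Abca7, Abcb9, Abcd2, Abcd4, Abce1, Abcf2, Abcf3 and Abcg2 lower, Abcg1 higher), 4 without primary untreated tumor 3, 5 without primary stavudine tumor 2 or 3 or recurrent 17-DMAG plus stavudine tumor 1, 6 without recurrent 17-DMAG tumor 3, 7 without primary untreated tumor 2, primary stavudine tumor 1 or recurrent 17-DMAG plus stavudine tumor 2, and 2 (Abca8b and Abcd2) without the 3 tumors whose skeletal muscle markers reached 400 CPM, an analysis that kept gland 2 and primary stavudine tumor 2. DESeq2 called 13 members and limma voom 8. Scaling to library totals alone, which moved the median log2 change of all genes to 0.37, left Abcb9 and Abcd2 called; no called member changed sign under any of the scalings.

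The primary untreated tumors alone were then set against the same glands. Again all calls were lower in tumors, 3 of 42 members where 1.83% of all genes were called lower. Abcb9 (−2.79 ± 0.60, adjusted p = 0.0468) and Abca7 (−1.45 ± 0.31, adjusted p = 0.0473) were among them. At an unadjusted p under 0.05 there were 15 lower members and 1 higher, beside 15.2% and 9.3% of all genes. Non-overlap was seen for 15 members lower and 5 higher, where 20.4% and 18.8% of all genes did not overlap. Of the members called lower over all tumors, Abca8b, Abca8a, Abca6, Abcd4, Abcc4, Abcd2, Abcb1a and Abcg3 were below both glands in all 3 tumors. None of these was called here, with changes of −1.05 (Abcd4) to −3.16 (Abcd2) and adjusted p of 0.0619 to 0.125. Abca9 was also below both glands and not called, with a change of −1.68 ± 0.59 (adjusted p = 0.124). Abcg2 changed by −2.12 ± 0.95 (adjusted p = 0.202) and overlapped. Abcb1b changed by −1.34 ± 0.64 (adjusted p = 0.224), Abcc1 by 0.23 ± 0.39 (adjusted p = 0.733), Abca1 by 0.03 ± 0.55 (adjusted p = 0.977) and Abcg1 by 0.90 ± 0.75 (adjusted p = 0.466). DESeq2 called 12 members and limma voom 2. Leaving out gland 1 or recurrent 17-DMAG tumor 1 gave 7 calls, leaving out any other single library gave 0, and both gland comparisons share the 2 glands and the 3 primary untreated tumors.

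Genes that work beside the family were read from the same fits, in 9 lists that hold 102 genes, 94 of them tested. Tumors were lower for 20 of the 94 and higher for 0 at an adjusted p under 0.05, where 8.81% of all genes were called lower and 1.6% higher. For 15 of the 20 every tumor was below both glands. Without gland 1, 15 of the 20 were still called, and without gland 2 only Pparg, Lpl, Por and Slco2b1 were, 4 in all. Of the receptors and factors that control ABC genes, 3 of 11 were called: Pparg (−3.37 ± 0.53, adjusted p = 0.00499), the regulator of fat cell formation, Ppara (−1.51 ± 0.25, adjusted p = 0.00637) and Nr1h3 (−1.42 ± 0.39, adjusted p = 0.0457), the LXR-alpha receptor that switches on Abca1 and Abcg1. The partners of cholesterol efflux gave 2 of 12, Lpl (−5.34 ± 0.59) and Scarb1 (−1.32 ± 0.36). Peroxisomal fatty acid oxidation gave 4 of 14, with Ehhadh (−1.93 ± 0.36), Pex16 (−0.82 ± 0.17) and Crat (−0.79 ± 0.17) among them, while heme and iron-sulfur cluster synthesis, which the mitochondrial members serve, gave 2 of 16, Alad (−0.93 ± 0.22) and Alas1 (−0.48 ± 0.13). Of drug and quinone metabolism, 3 of 15 were called, Por (−1.10 ± 0.12), Sult1a1 (−2.44 ± 0.43) and Ugt1a6a (−2.21 ± 0.50). The carriers that take drugs and nucleosides into cells gave 5 of 15, Slco2b1 (−1.87 ± 0.27), Slc28a3 (−3.31 ± 0.59), Slc28a2 (−3.37 ± 0.76), Slc22a3 (−3.76 ± 0.87) and Slco5a1 (−3.20 ± 0.78). Slc28a3, at 268 and 5088 CPM in the glands and 164 to 596 CPM in the tumors, and Scarb1, at 67.0 and 256 CPM in the glands and 44.2 to 115 CPM in the tumors, were set by gland 2, and their changes were 0.097 and 0.035 without it. Tap2 (−0.74 ± 0.18), one chain of the peptide transporter that feeds class I molecules, was 1 of 2 called among ABC genes with other symbols, and the 2 pore subunits of the channels and the 7 translation factors had 0 calls. The list medians lay between −0.68 and −0.01, beside −0.02 for all genes. In the primary untreated tumors alone 4 of the 94 were called, all lower, Por, Lpl, Slco2b1 and Alad, where 1.83% of all genes were called lower, and without gland 2 only Slco2b1 was.

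The tumor groups were compared with one another in a fit of the 11 tumors and 16870 genes, to ask whether stavudine or regrowth after 17-DMAG went with a change in transport genes. No member of the family was called in any of the 6 contrasts by edgeR, and 0% of all genes were called in each. The values of the members are therefore given as levels with unadjusted counts.

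Stavudine in primary tumors gave no call in the family. By edgeR 0 of 42 members were called, with 2 at an unadjusted p under 0.05, both lower, where 2.44% of all genes were lower by that measure; DESeq2 and limma voom also called 0. Of the 42, 32 were lower and 10 higher, with a median of −0.18 beside −0.03 for all genes. All 6 tested cholesterol and bile lipid exporters and 10 of 11 drug pumps were on the lower side, none of them at an unadjusted p under 0.05. Abca3 was the member whose groups did not overlap, at 234, 403 and 280.0 CPM untreated and 191, 219 and 226 CPM under stavudine (change −0.54 ± 0.23, unadjusted p = 0.0443, adjusted p = 1.00), where 5.83% of all genes were separated downward. The other unadjusted value was Abcb6, at 24.9, 36.2 and 35.3 CPM against 21.4, 25.9 and 25.2 CPM (−0.42 ± 0.16, unadjusted p = 0.0271). The fixed pumps changed by −0.02 ± 0.48 (Abcb1a), −0.43 ± 0.57 (Abcb1b), −0.10 ± 0.30 (Abcc1), −0.43 ± 0.57 (Abcg2), −0.18 ± 0.36 (Abca1) and −0.59 ± 0.49 (Abcg1), with adjusted p of 1.00 for each.

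Regrowth after 17-DMAG without stavudine was set against the same primary untreated tumors. The family was evenly split, 21 members higher and 21 lower, with a median of −0.01 beside −0.01 for all genes. By edgeR 0 were called, with 4 at an unadjusted p under 0.05 (9.69% of all genes) and 0 by DESeq2 and limma voom. Abcb10, a mitochondrial exporter active in heme-forming cells, was at 35.9, 34.7 and 34.8 CPM in primary and 21.4, 25.6 and 29.9 CPM in recurrent tumors, with no overlap (−0.47 ± 0.14, unadjusted p = 0.00919, adjusted p = 0.509). Abcc10 went from 37.6, 43.3 and 42.7 CPM to 27.4, 35.0 and 32.8 CPM (−0.39 ± 0.14, unadjusted p = 0.0186), again without overlap. Together with Abca3, 3 members were lower without overlap and 1 was higher, 4 in all, where 15.1% of all genes did not overlap. Abcg4, also at an unadjusted p under 0.05, changed by −1.58 ± 0.50. Of the drug pumps 8 of 11 were higher, and none of the fixed 4 passed: Abcb1a changed by 0.76 ± 0.48 (adjusted p = 0.558), Abcb1b by −0.07 ± 0.57 (0.964), Abcc1 by 0.47 ± 0.30 (0.563) and Abcg2 by −0.62 ± 0.57 (0.668). Abca1 changed by 0.48 ± 0.36 (adjusted p = 0.600) and Abcg1 by −0.03 ± 0.48 (adjusted p = 0.987).

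Under stavudine, the 2 recurrent tumors were compared with the 3 primary ones. Of 42 members, 30 were higher, with a median log2 change of 0.36 beside 0.02 for all genes. By edgeR 0 were called, 8 had an unadjusted p under 0.05, all higher, where 5.42% of all genes were higher by that measure, and DESeq2 called 1 and limma voom 0. Non-overlap was upward for 12 members and downward for 3, beside 17.4% and 17.9% of all genes. The 8 were Abcb9, Abca3, Abca2, Abcc3, Abcg3, Abcd2, Abcc5 and Abcb1b, 4 of them drug pumps by role. Abcc3, an exporter of bile salts and glucuronides, was at 7.99, 6.46 and 13.7 CPM in primary and 29.7 and 15.8 CPM in recurrent tumors (1.28 ± 0.38, adjusted p = 0.352). Abcg3 was at 0.276, 0.740 and 0.865 CPM against 3.17 and 1.41 CPM (1.87 ± 0.69, adjusted p = 0.454), and Abcd2 at 3.50, 3.11 and 1.16 CPM against 3.62 and 19.7 CPM (2.17 ± 0.81, adjusted p = 0.455). For these 3 genes both recurrent tumors lay above all primary ones, by little in the case of Abcd2, whose change was 0.48 without the second recurrent tumor. The change of Abcc3 was 0.75, and that of Abcg3 1.16, without the first. Abcc5 was at 10.5, 8.53 and 8.88 CPM against 9.83 and 31.7 CPM (1.16 ± 0.49, and 0.076 without the second recurrent tumor), and Abcb1b, with 1.86 and 8.54 CPM in the recurrent tumors, was high in the second alone (1.45 ± 0.63, adjusted p = 0.487, and −0.04 without that tumor). Abcb1a was at 3.46 and 2.77 CPM, above the 1.41 to 1.92 CPM of the primary tumors (0.95 ± 0.53, adjusted p = 0.549). Abcg2 went the other way, at 78.3 and 16.3 CPM against 160.1, 51.0 and 113 CPM (−1.19 ± 0.66, adjusted p = 0.549). Abcc1, Abca1 and Abcg1 changed by 0.40 ± 0.34, 0.59 ± 0.40 and 1.05 ± 0.53, with adjusted p of 0.670, 0.609 and 0.523.

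The same 2 tumors were also compared with recurrent tumors that had no stavudine. By edgeR 0 members were called, with 4 at an unadjusted p under 0.05, all higher (3.46% of all genes were higher), 1 call by DESeq2 and 0 by limma voom. The median was 0.21 beside −0.005 for all genes, with 27 of 42 higher, and non-overlap was upward for 6 and downward for 2, where 10.9% and 10.5% of all genes did so. Abcb9 was at 10.5 and 8.26 CPM against 3.45, 2.79 and 3.67 CPM, and no other tumor of any group exceeded 6.15 CPM. Its change was 1.51 ± 0.29 (unadjusted p = 0.000484, adjusted p = 0.205 by edgeR, 0.0002 by DESeq2 and 0.134 by limma voom). By edgeR it was 1.31 without the first of the 2 tumors and 1.66 without the second. Abca3 was at 297 and 505 CPM against 204, 211 and 231 CPM (0.90 ± 0.26, adjusted p = 0.403). Abca2, a lysosomal lipid transporter best known from myelin-forming cells, was at 94.8 and 266 CPM against 82.5, 73.7 and 90.8 CPM (1.14 ± 0.34, adjusted p = 0.413). The second tumor alone set the size of that value: all other libraries, glands included, lay between 72.4 and 94.8 CPM. Without the first tumor, which left the second alone in its group, the change of Abca2 was 1.69. Without the second tumor it was 0.20. Abcb10 was at 32.6 and 37.7 CPM against 21.4, 25.6 and 29.9 CPM (0.46 ± 0.16, adjusted p = 0.506). The fixed pumps changed by 0.17 ± 0.53 (Abcb1a), 1.09 ± 0.63 (Abcb1b), −0.17 ± 0.34 (Abcc1), −0.998 ± 0.66 (Abcg2), −0.08 ± 0.41 (Abca1) and 0.49 ± 0.54 (Abcg1), with adjusted p between 0.748 and 0.983. The second tumor had 1600 CPM of skeletal muscle markers, the lowest luminal sum and the highest basal sum of the tumors, though with low basal keratins. The part of cell composition in its levels was not tested.

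Averaged over both water arms, recurrent and primary tumors gave 0 calls by edgeR, DESeq2 and limma voom, with 9 members at an unadjusted p under 0.05 (6 higher and 3 lower, beside 7.61% and 6% of all genes) and 0 without overlap, where 1.34% of all genes had none. The median was 0.18 beside 0.002 for all genes. Abcg3 (1.38 ± 0.47, adjusted p = 0.312) and Abcc3 (0.75 ± 0.26, adjusted p = 0.314) were among the 6 higher. Of the 42 members 29 were higher, and of the 11 drug pumps 9. Abcb1a changed by 0.85 ± 0.36, Abcb1b by 0.69 ± 0.43, Abcc1 by 0.44 ± 0.23, Abcg2 by −0.91 ± 0.44, Abca1 by 0.54 ± 0.27 and Abcg1 by 0.51 ± 0.36, with adjusted p between 0.350 and 0.531.

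The interaction asked whether regrowth changed a gene differently in the 2 water arms. By edgeR 0 members were called (smallest adjusted p = 0.435), 6 had an unadjusted p under 0.05, all positive, where 3.83% of all genes were positive by that measure, and DESeq2 called 2 and limma voom 0. The median was 0.38 beside 0.03 for all genes. Abcb9 (1.64 ± 0.39, unadjusted p = 0.00214, DESeq2 adjusted p = 0.0131) and Abca3 (1.45 ± 0.35, unadjusted p = 0.00221, DESeq2 adjusted p = 0.0248) had the smallest p, followed by Abca2 (1.21 ± 0.45), Abcb10 (0.55 ± 0.22), Abcb4 (2.58 ± 1.06), the phosphatidylcholine pump of bile, and Abcf2 (0.56 ± 0.25). Abcb4 stood at no more than 2.07 CPM in any tumor. The fixed pumps had interactions of 0.19 ± 0.72 (Abcb1a), 1.52 ± 0.85 (Abcb1b), −0.07 ± 0.46 (Abcc1), −0.57 ± 0.86 (Abcg2), 0.11 ± 0.54 (Abca1) and 1.08 ± 0.72 (Abcg1), with adjusted p between 0.705 and 0.987. Without the first recurrent 17-DMAG plus stavudine tumor the interaction of Abca2 was 1.73, and without the second tumor of that group it was 0.25. All contrasts of that group rest on its 2 tumors, and the contrasts share groups with one another.

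**Figure D5:**
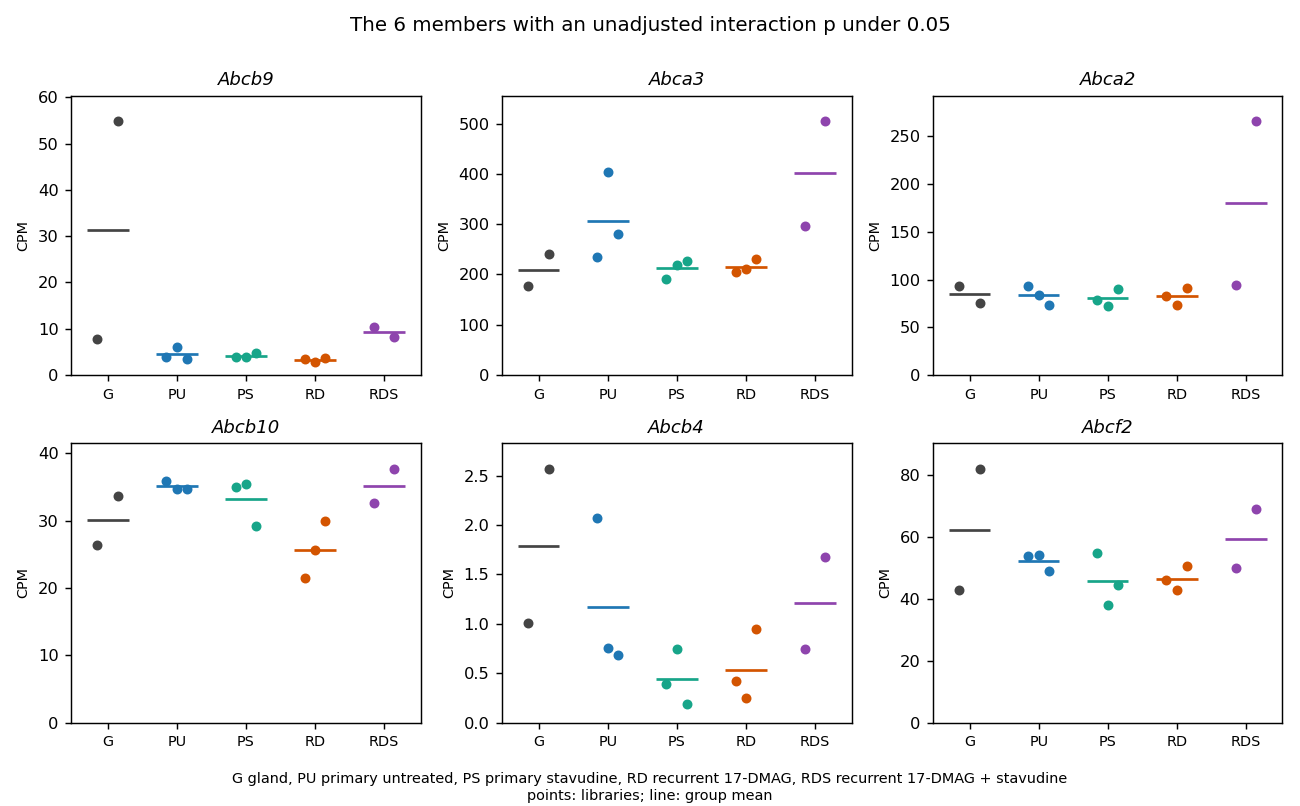
CPM, from 0, of the 6 members with an unadjusted interaction p under 0.05, in each library by group with group means as lines. Both recurrent 17-DMAG plus stavudine tumors stand above the other tumors for Abcb9, whereas for Abca2 the second of them, at 266 CPM, stands apart from all other libraries.

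The genes that work beside the family gave 0 calls by edgeR in all 6 tumor contrasts, with 0 to 5 calls by DESeq2 and 0 by limma voom. At an unadjusted p under 0.05, in either direction, there were 4 of 94 for stavudine in primary tumors (3.76% of all genes), 18 for regrowth without stavudine (9.69%), 11 for regrowth under stavudine (10.1%), 5 for stavudine in recurrent tumors (7.84%), 20 for regrowth averaged over both arms (13.6%) and 6 for the interaction (7.84%). The smallest p values belonged to Ppara, lower in recurrent tumors (−1.01 ± 0.22 averaged over both arms, adjusted p = 0.287), Slc15a2, a peptide carrier, in the interaction (−1.04 ± 0.21, adjusted p = 0.435), and Uros, of heme synthesis, under stavudine in recurrent tumors (0.76 ± 0.16, adjusted p = 0.240). Nqo1, which reduces quinones such as 17-DMAG, changed by 1.70 ± 0.50 in recurrent tumors averaged over both arms (adjusted p = 0.293).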

How the data were processed

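Total RNA depleted of ribosomal RNA was sequenced from the 13 tissues. The deposited values were raw counts per gene, made by the authors from reads of a stranded kit with STAR and featureCounts on GRCm38. The submitters' processing notes name bcl2fastq 2.20 and Subread 1.6.2, and the strand setting and the handling of read pairs were not given in the sources used here. Even counts made up 71.9% to 75.7% of gene counts from 1 to 20 in a library, as when both mates of a pair are counted, so a single count is not always a single fragment. Floors cover counting error only, whereas standard errors include the spread between libraries.

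Samples were grouped by their labels. Genes were filtered with filterByExpr and tested with edgeR 4.0.16 (R 4.3.3): TMM factors, quasi-likelihood fit with robust dispersions, 1 mean per group, two-sided, Benjamini-Hochberg adjustment over all genes of a contrast, called at 0.05. Gland contrasts used all 13 libraries (17135 genes), tumor contrasts the 11 tumors (16870 genes). Standard errors were the log2 change divided by the root of the F statistic. Alternatives were DESeq2 1.42.0, limma 3.58.1 voom, RLE factors, library totals alone, no filter on low counts, factors without milk, muscle and adipocyte genes, the replicate number as a block, the compared groups alone, and each library left out. Leaving out the 3 tumors whose skeletal muscle markers reached 400 CPM was chosen after seeing the data. The fits were tested on simulated counts.

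Named members were those called, those at an unadjusted p under 0.05 without overlap whose log2 CPM averaged 0 or more (at most 12), and 6 fixed pumps. Other members at an unadjusted p under 0.05, and the neighbours on chromosome 11, were named after their values were seen. Gene positions and exon lengths came from GENCODE, which may differ from the annotation the authors counted on. The members, roles, partner lists and 12 marker lists were chosen with earlier results of these data known. Sequence words, motifs and CG pairs were counted on the reference. Results that need certain withheld genes are not reported here; those genes stay in the fits and counts.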

Additional observations from a re-analysis of the deposited data

Results flagged for a closer look

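For Abca3, the phospholipid transporter of lamellar bodies, the recurrent tumors lay on opposite sides of the primary ones in the 2 water arms. Without stavudine, the recurrent tumors (204, 211 and 231 CPM) were all below the primary ones (234, 403 and 280.0 CPM). The nearest values there were 231 and 234 CPM, and by edgeR no subfamily A member had an unadjusted p under 0.05 in that arm. Under stavudine, both recurrent tumors (297 and 505 CPM) were above all primary ones (191, 219 and 226 CPM). Such non-overlap was seen for 15.1% of all genes without stavudine, in either direction, and upward for 17.4% under stavudine. The interaction was 1.45 ± 0.35 on the log2 scale, with an adjusted p of 0.435 by edgeR, 0.0248 by DESeq2 and 0.418 by limma voom. Without the second recurrent 17-DMAG plus stavudine tumor, the interaction was 0.97 and the change under stavudine 0.48.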

How the results depend on the processing

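Of 13 called values of members, 2 changed sign under an alternative, Abcg3 without gland 1 (range over single libraries left out −3.21 to 0.049) and Abcg2 without gland 2 (−3.67 to 0.63). Over 85 values of named members and 1730 alternatives, 69 changed sign, 50 of them on leaving out 1 library. The cause of these changes was not tested.

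In tumors against glands, 2 members were called with library totals alone, 1 with the replicate block and 2 without the 3 tumors whose skeletal muscle markers reached 400 CPM (called muscle-holding tumors here), and 1 to 13 with single libraries left out. Abca1 ran from −0.38 to 1.61 over single libraries left out. In primary untreated tumors against glands, DESeq2 called 12 and the analysis with no filter on low counts 1. There were 0 calls with library totals alone, the replicate block, the compared groups alone or without the muscle-holding tumors, and 0 to 7 with single libraries left out. Abcc1 was −0.0019 without the muscle-holding tumors and −0.10 to 0.87 with single libraries left out, Abcg2 −3.01 to 1.30 and Abca1 −0.56 to 1.42.

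For stavudine in primary tumors, Abcb1a changed sign, to 0.0265 with library totals alone, 0.0028 with no filter, 0.003 without milk, muscle and adipocyte genes, 0.0137 with the replicate block, 0.0047 with the compared groups alone and 0.0933 without the muscle-holding tumors, and ran from −0.16 to 0.0786 over single libraries left out. Abcc1 was 0.18 without the muscle-holding tumors and −0.29 to 0.17 over single libraries. For regrowth without stavudine, Abcg1 was 0.0044 with DESeq2, 0.0043 with RLE factors, 0.0203 with library totals alone, 0.13 without the muscle-holding tumors and −0.54 to 0.29 over single libraries, Abcb1a −0.085 to 1.09 and Abcb1b −0.41 to 0.28. For regrowth under stavudine DESeq2 called 1 member, single libraries left out gave 0 to 1, and Abcb1b was −0.0377 without the muscle-holding tumors and −0.0378 to 2.16 over single libraries. For stavudine in recurrent tumors DESeq2 called 1, single libraries left out gave 0 to 1, Abcb1b was −0.37 without the muscle-holding tumors and Abca1 0.0019 with limma voom. Over single libraries Abcb1a ran from −0.15 to 1.03, Abcb1b from −0.41 to 1.79, Abcc1 from −0.39 to 0.0251, Abca1 from −0.54 to 0.41 and Abcg1 from −0.41 to 1.02. Averaged over both arms, Abcb1b was −0.0352 without the muscle-holding tumors and −0.0424 to 1.06 over single libraries. In the interaction DESeq2 called 2, single libraries left out gave 0 to 1, and without the muscle-holding tumors Abcb1a was −0.0632, Abcb1b −0.005 and Abcg2 0.45. Over single libraries Abcb1a ran from −0.15 to 1.03, Abcc1 from −0.35 to 0.12, Abcg2 from −2.14 to 0.12 and Abca1 from −0.38 to 0.57.

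Replicate numbers were shared between groups but did not pair the samples: deviations from the group means correlated at a mean of −0.032 over 23 same-numbered pairs (−0.289 to 0.217) and 0.016 over 44 others. The replicate block gave 0 calls in all tumor contrasts. With 2 glands and 2 recurrent 17-DMAG plus stavudine tumors, a lone library left in a group was assumed to vary like the others. Members near 3 counts, such as Abcc12, were at the limit of this depth.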
